A study of Homo sapiens with 12 samples.

Results

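The Krüppel-like factors examined were KLF2, KLF3, KLF4, KLF5, KLF6, KLF7, KLF9, KLF10, KLF11 and KLF13, chosen by symbol. They are 10 of the 43481 genes in the deposited tables, and all 10 were abundant enough to be tested. RNA came from RPE-1, a human line grown from the pigment epithelium of the retina, in 4 groups of 3 libraries. All groups spent 24 h in medium with neither glucose nor fetal calf serum (FCS), and the starved group was harvested then. The solvent group next had 4 h of medium with 10% FCS, 5 g/l glucose and DMSO. The DMA group had the same medium and time with 100 µM dimethyl amiloride, an inhibitor of Na+/H+ exchangers. The C646 group had it with 10 µM C646, which inhibits p300 and CBP, enzymes that acetylate histones. The labels do not say whether libraries 1 to 3 of a group were separate cultures, so p-values measure only the spread between these libraries.

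Krüppel-like factors are transcription factors that bind GC boxes and CACCC boxes in DNA through zinc fingers at their C-terminal end. Their N-terminal parts differ. KLF2, KLF4, KLF5, KLF6 and KLF7 recruit coactivators such as p300 and CBP at many genes, KLF3 recruits the corepressor CtBP, and KLF9, KLF10, KLF11 and KLF13 recruit the corepressor SIN3A. Several of the genes are known as immediate or early responders to serum, growth factors or stress in epithelial cells and fibroblasts.

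All 10 genes are protein coding. In GENCODE 29 on GRCh38 they lie at chr19:16324817-16327874 (KLF2), chr4:38664196-38701042 (KLF3), chr9:107484852-107490482 (KLF4), chr13:73054976-73077542 (KLF5) and chr10:3775996-3785281 (KLF6). KLF7 and KLF11 share a chromosome, at chr2:207074137-207167267 and chr2:10042849-10054836. KLF9 lies at chr9:70384597-70414624, KLF13 at chr15:31326855-31435665 and KLF10 on chromosome 8.

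The libraries held 14910516 to 28968510 expected counts, and mitochondrial transcripts took 1.69% to 4.18% of them. Within a group, a library differed from the mean of the other libraries by a root mean square of 0.277 to 0.407 on the log2 scale over 10966 genes. Of 9 markers of pigment epithelium, RPE65, RLBP1, TYR, TYRP1 and TTR were at or below 0.293 CPM (gene counts per 1000000, after TMM scaling of the library sizes) in every library. The summed CPM of the 9 markers, mostly from MITF and OTX2, was 64.2 to 77.6 in starved, 26.5 to 48.6 in solvent, 30.4 to 51.2 in DMA and 34.2 to 49.7 in C646 libraries. Endothelial markers (PECAM1, CDH5 and VWF) summed to at most 1.47 CPM and leukocyte markers (PTPRC, CD3E and CD14) to at most 1.52 CPM. The part of these markers in the results below was not tested. RNA was bulk, so fewer cells of a type and less RNA per cell cannot be told apart.

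On the length-corrected scale (TPM, transcript shares corrected for length and scaled to the same total), KLF6 and KLF10 were the most abundant of the 10 genes in each of the 4 groups. In starved cells KLF6 averaged 31.1 ± 10.3 TPM (SD, n = 3) and KLF10 20.3 ± 1.41 TPM. The starved libraries held 22.93 to 42.67 TPM of KLF6 and 19.06 to 21.85 TPM of KLF10, a narrow gap that was not tested. KLF3, KLF5, KLF11, KLF9, KLF7 and KLF4 followed with means from 17.8 down to 8.96 TPM, and neighbours in this order were within each other's spread. KLF13 (5.32 TPM) and KLF2 (3.96 TPM) were lowest. In solvent cells KLF10 averaged 38.0 ± 4.13 and KLF6 36.9 ± 2.92 TPM. KLF11 stood at 2.96 ± 1.25 TPM there, against 13.8 ± 3.04 TPM in starved cells, and KLF4 at 1.92 ± 0.153 TPM, against 8.96 ± 3.56 TPM. In DMA cells KLF6 led with 70.2 ± 6.18 TPM, and in C646 cells it averaged 37.1 ± 2.17 TPM. Added over the 10 genes, the level was 121 to 170 TPM in starved and 137 to 155 in solvent libraries. It was 197 to 233 in DMA and 143 to 169 in C646 libraries, so the DMA libraries had the highest totals with no overlap. KLF6, KLF10 and KLF5 had the largest DMA means (70.2, 52.9 and 26.45 TPM, against 36.9, 38.0 and 12.7 TPM with solvent). KLF9 and KLF13 averaged lower with DMA (14.6 and 6.47 TPM) than with solvent (19.3 and 8.18 TPM). For KLF13 the CPM, which are not corrected for length, went the other way, with means of 27.2 with DMA and 23.5 with solvent.

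**Figure D1:**
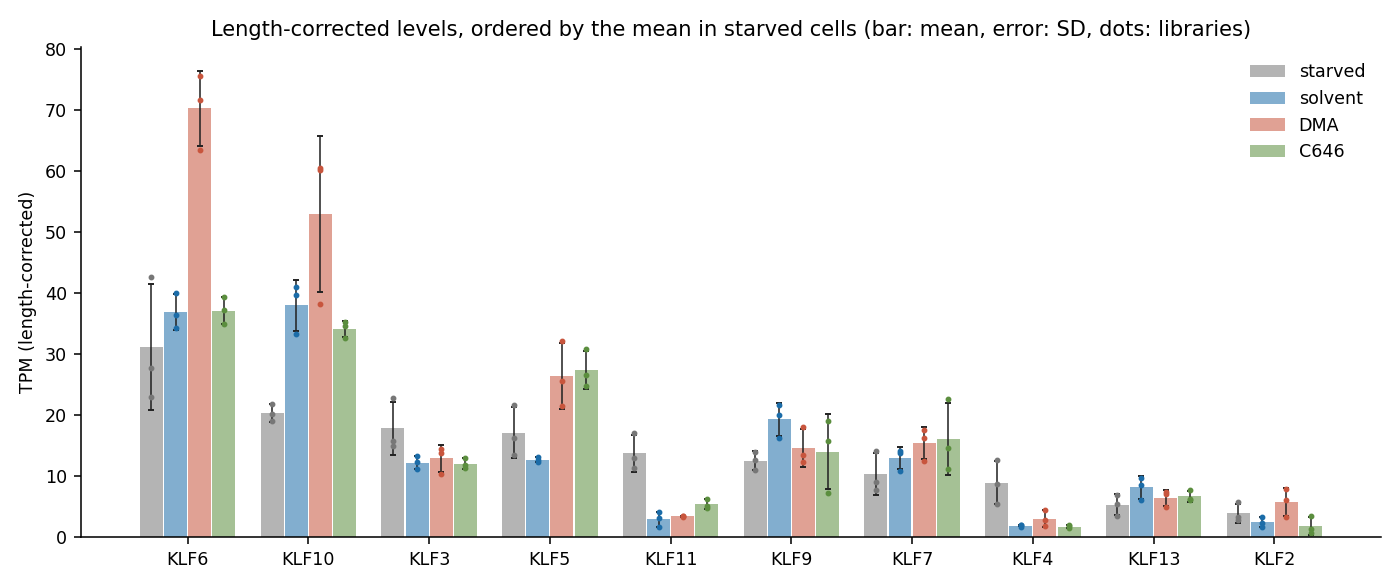
Length-corrected level (TPM, vertical axis) of each Krüppel-like factor gene in the 4 groups, with bars for group means, error bars for SD and dots for the 3 libraries. KLF6 and KLF10 are highest in all groups, KLF6 reaches a mean of 70.2 TPM under DMA, and KLF4 and KLF11 are far higher in starved than in stimulated cells.

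Solvent and starved cells were compared first, to ask how 4 h of serum and glucose changed these genes. The solvent cells also had DMSO, a change of medium and 4 h more of culture, and these cannot be told apart from serum and glucose. KLF4 fell 4.68-fold and KLF11 4.36-fold, KLF3 fell 1.34-fold, and KLF10 and KLF7 rose 1.82-fold and 1.44-fold. By edgeR's quasi-likelihood test with Benjamini-Hochberg adjustment over 15263 genes, 2 of the 10 genes were higher and 3 lower at an adjusted p under 0.05. Of all genes tested, 24.3% passed (12.6% higher and 11.7% lower). The median log2 difference was -0.18 over the 10 genes and 0.00 over all genes. All levels from here on are such TMM-scaled CPM, which compare a gene between libraries and do not correct for gene length.

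KLF4, known as a factor of epithelial quiescence and differentiation, measured 19.02, 13.4 and 7.98 CPM in starved libraries 1 to 3 and 2.92, 3.00 and 2.72 CPM in solvent libraries. Every starved library was above every solvent library, although the starved values themselves spread widely. The log2 difference was -2.23 ± 0.34 (SE, adjusted p = 5.3e-04). KLF11, a SIN3A-binding repressor induced by TGF-beta, measured 31.8, 40.7 and 42.5 CPM in starved and 11.7, 4.96 and 9.60 CPM in solvent libraries. The groups lay far apart, with the lowest starved library well above the highest solvent one. The log2 difference was -2.13 ± 0.30 (adjusted p = 3.9e-04). No alternative setting ended either call.

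KLF10, the closest relative of KLF11 and also TGF-beta inducible, moved the other way. It measured 42.4, 45.55 and 55.6 CPM in starved and 90.7, 79.1 and 91.9 CPM in solvent libraries, without overlap. Its log2 difference was 0.87 ± 0.16 (adjusted p = 0.0021), and no alternative ended the call. KLF7, a factor of neurons and adipocyte precursors, was at 41.8, 45.3 and 35.3 CPM in starved and at 59.25, 58.6 and 58.1 CPM in solvent libraries. The solvent values were nearly identical and all above the starved ones, with a log2 difference of 0.52 ± 0.15 (adjusted p = 0.020). The adjusted p of KLF7 was 0.0505 and 0.069 with starved library 1 or 3 left out, and 0.052 with solvent library 1 left out.

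KLF3, the CtBP-binding repressor, measured 56.5, 70.0 and 54.3 CPM in starved and 45.8, 40.05 and 49.2 CPM in solvent libraries. The groups did not overlap, but the gap was small, and the log2 difference was -0.42 ± 0.14 (adjusted p = 0.047). This call was lost without starved library 1 or 2 (adjusted p = 0.071 and 0.21) and without solvent library 1, 2 or 3 (0.094, 0.16 and 0.053). It was also lost with no filter on low counts (0.071), with only these groups fitted (0.056), and with the library number as a block and solvent library 1 left out (0.057). Scaling to the spike-in controls, which moved the median of all genes by 0.59, turned the direction of KLF3 (log2 difference 0.15, adjusted p = 0.77) and also that of KLF5 and KLF13, which had not passed.

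The other 5 genes did not pass. KLF9, a SIN3A-binding repressor known for its induction by glucocorticoids, measured 47.1, 53.2 and 46.9 CPM in starved and 60.7, 78.35 and 83.4 CPM in solvent libraries. The groups did not overlap, yet the log2 difference of 0.59 had an adjusted p of 0.13, and it passed when only these groups were fitted (adjusted p = 0.0145) and with spike-in scaling (log2 difference 1.22, adjusted p = 0.0047). KLF2, a factor best known from endothelium and T cells, was at 6.47, 3.98 and 3.85 CPM in starved and 2.92, 2.04 and 3.36 CPM in solvent libraries (log2 difference -0.79 ± 0.45, adjusted p = 0.23). KLF2 rested on 13 to 147 counts per library. KLF5 (log2 difference -0.33, 95% interval -0.72 to 0.05), KLF6 (0.24, -0.13 to 0.60) and KLF13 (-0.03, -0.47 to 0.41) had overlapping libraries. With the library number as a block and solvent library 1 left out, KLF5 passed as lower (-0.505, adjusted p = 0.0346).

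**Figure D2:**
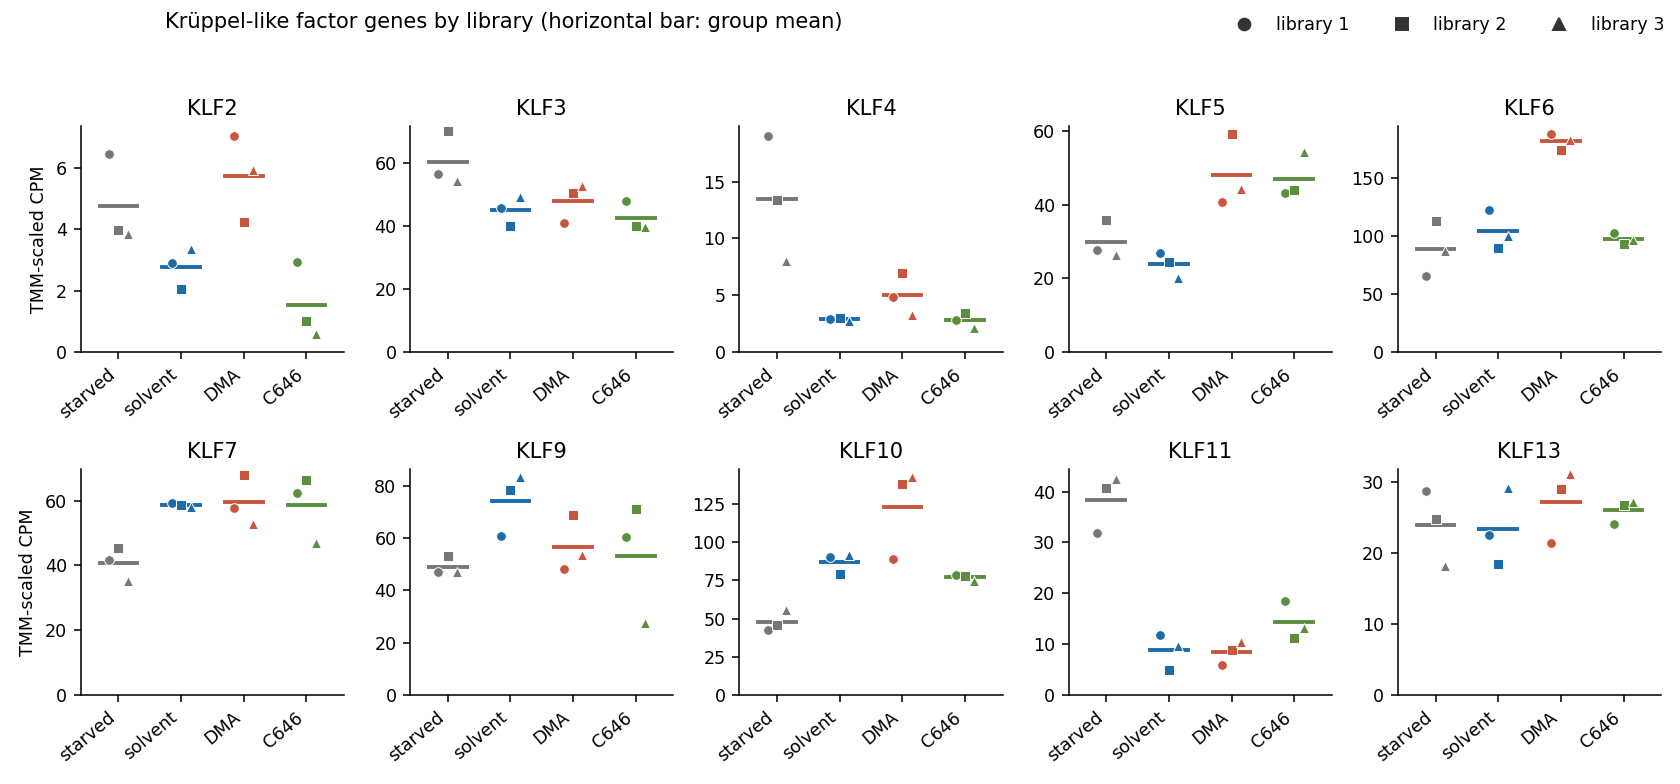
TMM-scaled CPM (vertical axis, starting at 0) of each gene in the 12 libraries, with one panel per gene, symbols for libraries 1 to 3 and a bar for the group mean. KLF4 and KLF11 drop from starved to solvent cells, KLF6 is above 173 CPM only in the DMA libraries, and KLF5 is above 40 CPM in both inhibitor groups.

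The promoters of KLF4 and KLF11 are shown because these genes fell most in solvent against starved cells. RefSeq promoter windows on GRCh38.p14 run from 250 bases before to 50 bases after a start site, and 8 of the 10 genes had 13 windows between them. Windows were searched on both strands for the cAMP response element (CRE, TGACGTCA), the E-box (CACGTG), the GC box (GGGCGG), the CACCC box (CCACCC) and the TATA box (TATAAA). Only the part outside annotated exons is printed, 5′ to 3′ on the strand of the gene, with motif matches in capitals. The KLF4 stretch is chr9:107489770-107490019 on the minus strand, directly before the start site. The KLF11 stretch is chr2:10043971-10044174 on the plus strand. It precedes the second RefSeq start of KLF11 and lies downstream of the start of KLF11-206, the transcript with 92.6% of the gene's counts.
KLF4: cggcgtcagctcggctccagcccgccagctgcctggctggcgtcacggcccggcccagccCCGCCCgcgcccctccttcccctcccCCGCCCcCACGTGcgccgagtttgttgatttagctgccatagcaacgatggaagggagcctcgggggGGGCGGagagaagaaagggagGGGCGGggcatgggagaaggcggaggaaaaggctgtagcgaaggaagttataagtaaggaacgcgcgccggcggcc
KLF11: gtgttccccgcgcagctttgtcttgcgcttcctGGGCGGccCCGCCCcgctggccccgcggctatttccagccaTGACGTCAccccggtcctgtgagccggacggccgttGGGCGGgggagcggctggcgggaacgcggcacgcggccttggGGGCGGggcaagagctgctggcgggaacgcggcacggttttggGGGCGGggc
The KLF4 stretch holds 4 GC boxes and an E-box. The KLF11 stretch holds 5 GC boxes and the single CRE found in the 13 windows, and the first KLF11 window has 2 GC boxes and an E-box. In that first window, the 70 bases directly before the start of KLF11-206, which are not printed, hold no motif match. A GC box was present in 8 of the 13 windows and in 45% of all 35116 promoter windows, and an E-box in 4 of 13 and in 7.26% of all. A CRE was present in 1.85% of all windows, a CACCC box in 34.3% and a TATA box in 11.5%. Windows of one gene share their locus, and a match describes letters, not binding.

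**Figure D3:**
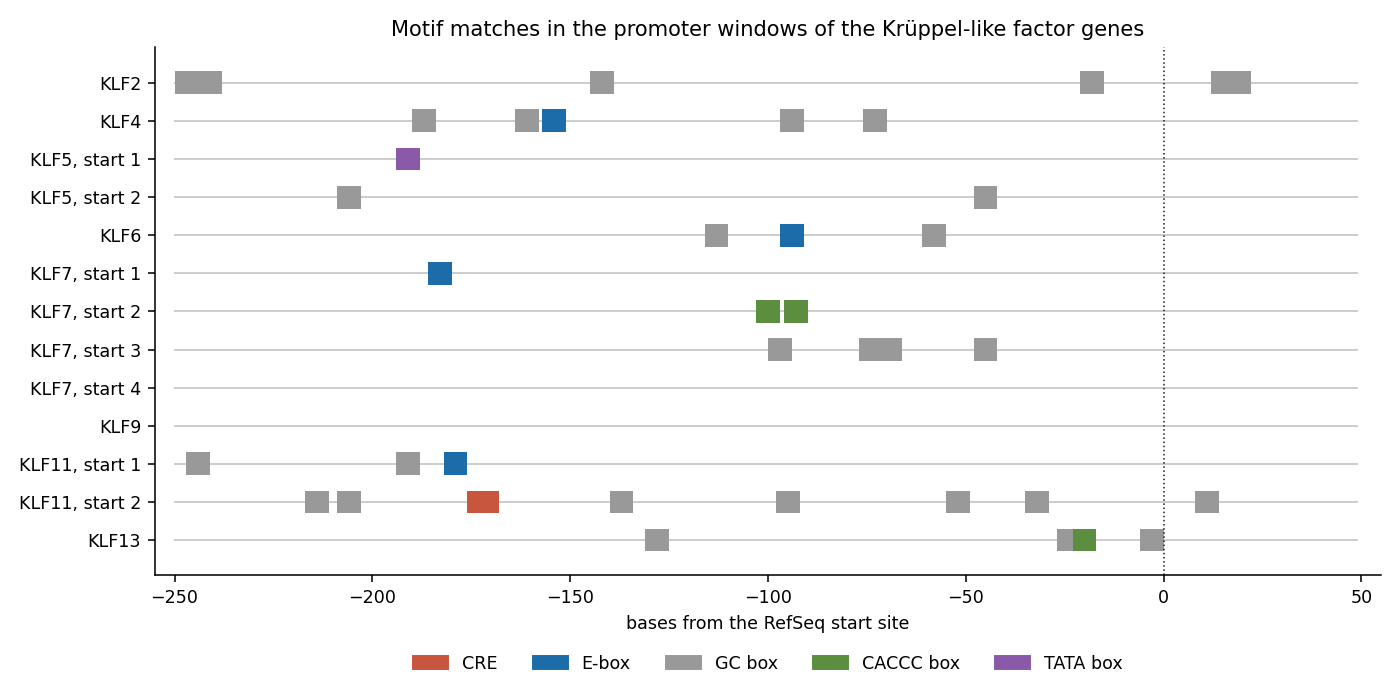
Motif matches by distance from the RefSeq start site (horizontal axis, bases; the dotted line is the start) in the 13 promoter windows of 8 genes, 1 row per window, coloured by motif. GC boxes lie in 8 windows, E-boxes in 4, and the only CRE is in the second KLF11 window.

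The comparison of DMA with solvent cells asks what 100 µM dimethyl amiloride changed during stimulation. KLF5 rose 2.02-fold and KLF6 1.74-fold, and the other 8 genes did not pass. By edgeR, 2 of 10 genes were higher, against 0.734% of all genes tested, and 1.75% of all genes passed in either direction. None of the 10 was lower by edgeR, against 1.02% of all genes, and the number lower was also 0 at an unadjusted p under 0.05 and 0 by DESeq2. The median log2 difference was 0.36 over the 10 genes and 0.01 over all genes. With the library number as a block, 10.2% of all genes passed.

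KLF5, a proliferation-associated factor of basal epithelia, measured 27.0, 24.4 and 20.1 CPM in solvent and 40.6, 59.3 and 44.3 CPM in DMA libraries. All DMA libraries were above all solvent libraries, and the log2 difference was 1.01 ± 0.18 (adjusted p = 0.019). The adjusted p of KLF5 was 0.064, 0.057 and 0.11 without solvent library 1, solvent library 2 or DMA library 2, and 0.069 when only these groups were fitted. KLF6, an activator induced by injury and stress, measured 122.6, 89.1 and 100.2 CPM in solvent and 187.9, 173.4 and 182.6 CPM in DMA libraries. The DMA libraries were close to each other and above every library of the other groups. The log2 difference was 0.80 ± 0.17 (adjusted p = 0.035). Leaving out any 1 of the 6 libraries ended the call of KLF6: the adjusted p was 0.078, 0.11 and 0.071 without solvent library 1, 2 or 3 and 0.061, 0.13 and 0.075 without DMA library 1, 2 or 3, while the log2 difference stayed between 0.70 and 0.94. It also ended with only these groups fitted (0.052) and with spike-in scaling (log2 difference 1.07, adjusted p = 0.13).

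KLF10 measured 90.7, 79.1 and 91.9 CPM in solvent and 89.0, 138.4 and 142.7 CPM in DMA libraries. DMA libraries 2 and 3 were higher than every solvent library, and DMA library 1 was within the solvent range. The log2 difference was 0.50 ± 0.16 (adjusted p = 0.12), and with the library number as a block the adjusted p was 0.049. Without DMA library 1 the log2 difference was 0.68 (adjusted p = 0.031). KLF2, at 7.03, 4.25 and 5.94 CPM under DMA, and KLF4, at 4.82, 6.93 and 3.23 CPM, were above all solvent libraries, but neither difference passed. The log2 difference of KLF2 was 1.05 (95% interval 0.07 to 2.02, adjusted p = 0.22) and that of KLF4 0.79 (0.07 to 1.52, adjusted p = 0.22). KLF11 measured 5.83, 8.90 and 10.4 CPM under DMA, within the solvent range, with a log2 difference of -0.06 (-0.72 to 0.59). KLF3, KLF7, KLF9 and KLF13 had overlapping libraries and log2 differences from -0.39 to 0.21.

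The comparison of C646 with solvent cells asks what 10 µM C646 changed during stimulation. KLF5 rose 1.97-fold, and no other gene of the family passed. By edgeR, 1 of 10 genes was higher, against 0.812% of all genes tested, and 1.21% of all genes passed in either direction. None was lower by edgeR, against 0.4% of all genes, and the number lower was also 0 at an unadjusted p under 0.05 and 0 by DESeq2. The median log2 difference was -0.06 over the 10 genes and 0.01 over all genes. With the library number as a block, 7.86% of all genes passed.

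KLF5 measured 43.1, 43.9 and 54.2 CPM in C646 libraries against 27.0, 24.4 and 20.1 CPM in solvent libraries. The groups did not overlap, and the log2 difference was 0.98 ± 0.18 (adjusted p = 0.023). Its adjusted p was 0.063, 0.058 and 0.061 without solvent library 1, 2 or 3, and 0.060 and 0.063 without C646 library 1 or 3. With spike-in scaling the log2 difference was 1.14 and the adjusted p 0.11. KLF11 measured 18.6, 11.3 and 13.2 CPM with C646 against 11.7, 4.96 and 9.60 CPM with solvent. It was higher with C646 in 3 of 3 library numbers, but the log2 difference of 0.71 ± 0.30 did not pass (adjusted p = 0.25). KLF2 was at 2.94, 1.01 and 0.594 CPM, with C646 libraries 2 and 3 below every other library of the study, and its log2 difference of -0.86 ± 0.47 did not pass (adjusted p = 0.38). KLF9 was uneven, with 60.3 and 71.2 CPM in C646 libraries 1 and 2 and 27.5 CPM in library 3. KLF6 measured 102.5, 92.6 and 96.6 CPM, within the solvent range, with a log2 difference of -0.10 (95% interval -0.46 to 0.27). KLF10 measured 78.7, 77.8 and 74.9 CPM, just below every solvent library, with a log2 difference of -0.18 (-0.53 to 0.17) that did not pass.

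The start of KLF5 is shown because KLF5 was the one gene that rose with both inhibitors, and that of KLF6 because KLF6 rose with DMA. The KLF5 stretch is chr13:73054726-73054975 on the plus strand, directly before the start of KLF5-205, the transcript with 73.3% of the gene's counts. The KLF6 stretch is chr10:3785282-3785459 on the minus strand. Capitals again mark motif matches.
KLF5: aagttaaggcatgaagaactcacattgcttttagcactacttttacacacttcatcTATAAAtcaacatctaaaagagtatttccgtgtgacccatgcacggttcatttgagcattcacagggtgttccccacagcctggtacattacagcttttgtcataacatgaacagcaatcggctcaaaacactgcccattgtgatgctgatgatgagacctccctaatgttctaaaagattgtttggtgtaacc
KLF6: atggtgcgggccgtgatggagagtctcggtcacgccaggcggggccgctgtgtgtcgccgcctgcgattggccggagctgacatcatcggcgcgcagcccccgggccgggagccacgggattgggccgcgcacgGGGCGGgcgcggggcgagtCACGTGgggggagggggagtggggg
The KLF5 stretch holds 1 TATA box, far upstream of the start, and no GC box, while its window has a GC content of 40.7%. The second RefSeq window of KLF5, with its start at position 73059005, has a GC content of 71.3% and holds 2 GC boxes. The KLF6 stretch holds a GC box and an E-box in a window with a GC content of 70.7%.

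DMA and C646 were then compared with each other, which tests the difference between the inhibitors directly. By edgeR, 3 of 10 genes were higher with DMA, against 0.943% of all genes tested, and none was lower, against 1.95%. In either direction 2.89% of all genes passed, and 9.81% with the library number as a block. At an unadjusted p under 0.05, 1 of the 10 genes was lower, and none was with DESeq2. KLF6 was 1.86-fold higher with DMA (log2 difference 0.90 ± 0.17, adjusted p = 0.014), with no overlap between 187.9, 173.4 and 182.6 CPM and 102.5, 92.6 and 96.6 CPM. KLF10 was 1.60-fold higher (0.68 ± 0.16, adjusted p = 0.041), and its lowest DMA library, at 89.0 CPM, was above its highest C646 library, at 78.7 CPM. KLF2 was 3.76-fold higher (1.91 ± 0.47, adjusted p = 0.047), at levels below 8 CPM in both groups. KLF5 did not pass, with a log2 difference of 0.03 and a 95% interval of -0.35 to 0.41.

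The call of KLF6 was lost without C646 library 2 (adjusted p = 0.055) and with spike-in scaling (log2 difference 1.00, adjusted p = 0.195). That of KLF10 was lost without DMA library 2 or 3 (0.14 and 0.15) or C646 library 1, 2 or 3 (0.11, 0.11 and 0.10), and that of KLF2 without DMA library 1, 2 or 3 (0.11, 0.077 and 0.12) or C646 library 2 or 3 (0.16 and 0.10). With only these groups fitted KLF10 and KLF2 also did not pass (0.11 and 0.13), and with spike-in scaling KLF10 did not (0.52). KLF11 was the gene lower with DMA at an unadjusted p under 0.05, with a log2 difference of -0.78 ± 0.30 and an adjusted p of 0.20.

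**Figure D4:**
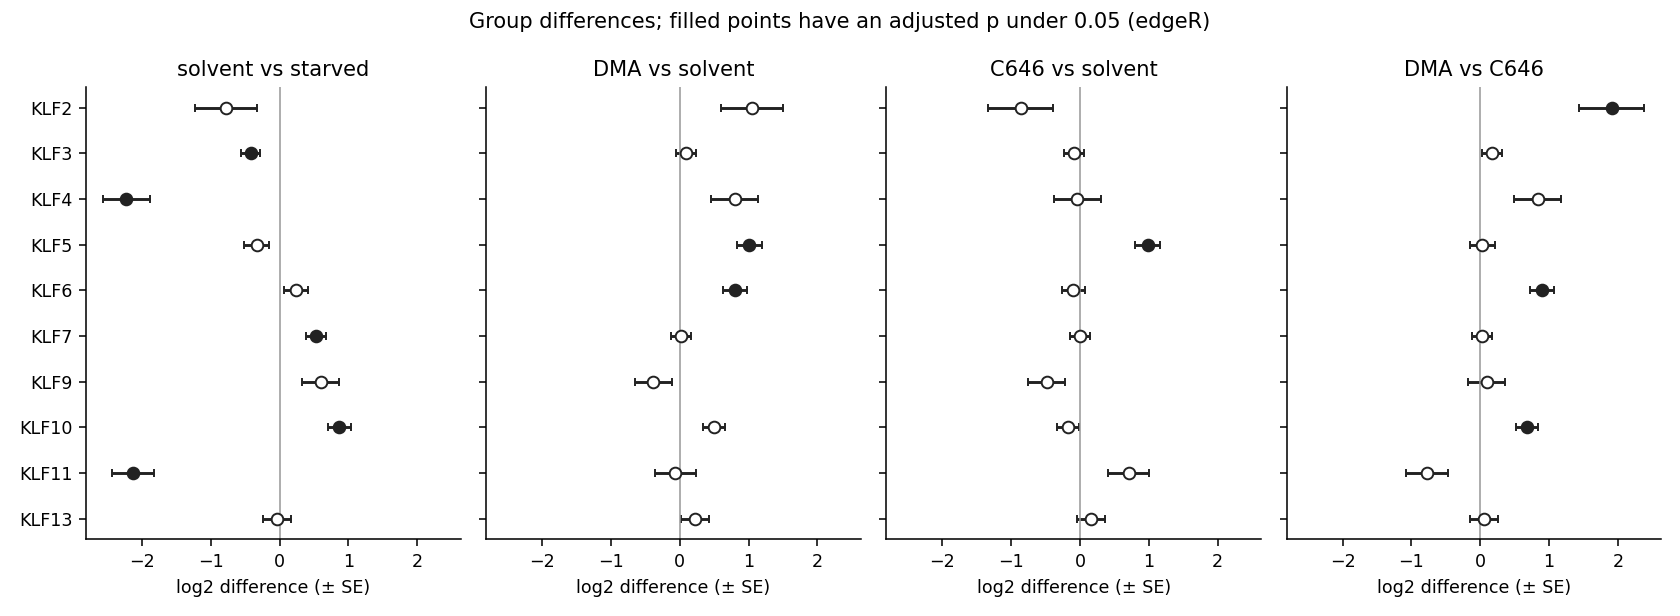
Log2 differences (horizontal axis) with SE for the 10 genes in 4 comparisons, where filled points have an adjusted p under 0.05. KLF4 and KLF11 lie near -2.2 in solvent against starved cells, and KLF5 lies near 1 with either inhibitor.

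**Figure D5:**
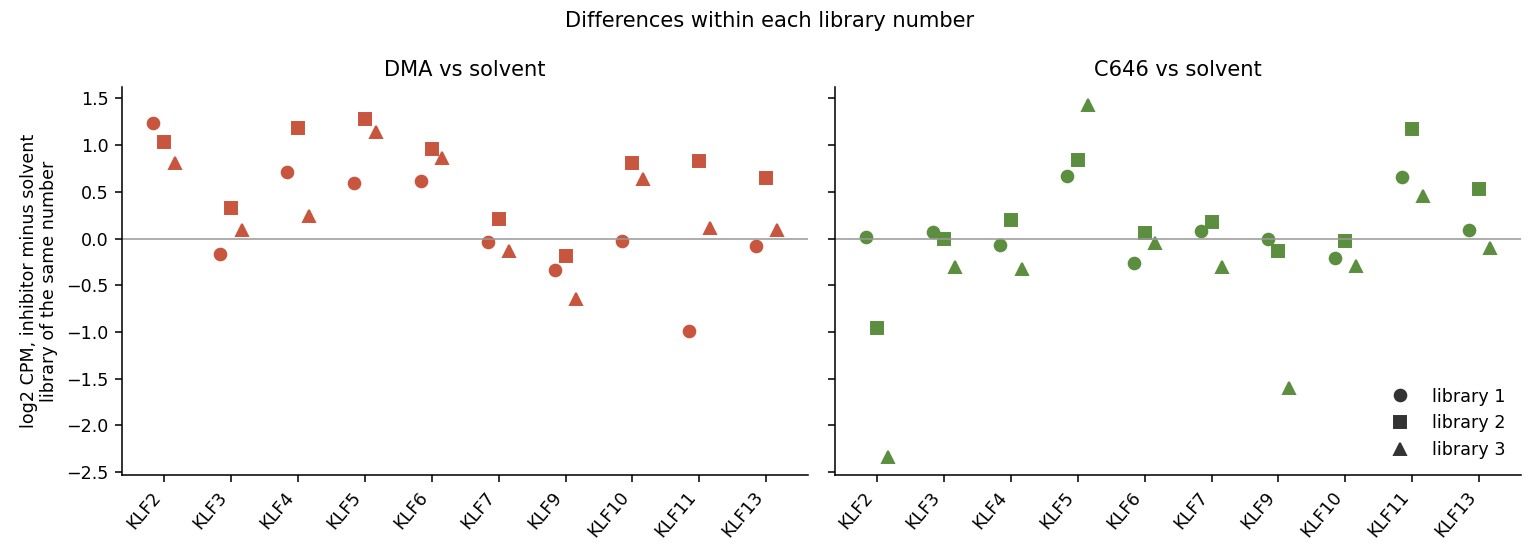
Log2 CPM of each inhibitor library minus the solvent library of the same number (vertical axis) for the 10 genes, with symbols for libraries 1 to 3. KLF5 is above 0 in 3 of 3 library numbers with both inhibitors, and KLF6 in 3 of 3 with DMA. Both inhibitors are set against the same solvent libraries.

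Set against starved cells, the stimulated inhibitor groups gave the following. These comparisons share the starved libraries with each other and with the solvent comparison, so their values are given side by side. With DMA, 4 of 10 genes were higher, against 13.9% of all genes, and 2 lower, against 13% (26.9% in either direction). With C646, 3 were higher, against 12.9%, and 4 lower, against 11.7% (24.6% in either direction). The log2 difference from starved cells of KLF11 was -2.13 with solvent, -2.19 with DMA and -1.42 with C646. That of KLF4 was -2.23, -1.43 and -2.27. KLF10 was higher by 0.87, 1.37 and 0.69. KLF6 was higher by 1.04 with DMA (adjusted p = 8.2e-04), while 0.24 with solvent and 0.14 with C646 did not pass. With spike-in scaling the C646 difference of KLF6 was 0.81 and passed (adjusted p = 0.047). KLF5 was higher by 0.68 with DMA and 0.65 with C646 (adjusted p = 0.013 and 0.018), while -0.33 with solvent did not pass. KLF7 was higher by 0.52, 0.54 and 0.52, with 47.0 to 68.0 CPM in the stimulated libraries and 35.3 to 45.3 CPM in the starved ones. KLF2 and KLF3 were lower with C646 (-1.65 and -0.51, adjusted p = 0.022 and 0.021), and for DMA the values 0.26 and -0.33 did not pass.

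For KLF5 the adjusted p with DMA was 0.053, 0.054 and 0.064 without starved library 1, starved library 3 or DMA library 2, and with C646 it was 0.069, 0.073 and 0.063 without starved library 1, starved library 3 or C646 library 3. The KLF7 call was lost with DMA without starved library 3 or DMA library 2 (0.058 and 0.068), and with C646 without starved library 1 or 3 (0.052 and 0.078) or C646 library 1 or 2 (0.074 and 0.089). The KLF2 call with C646 was lost without starved library 1 or C646 library 2 or 3 (0.090, 0.083 and 0.056), and the KLF3 call without starved library 2 or C646 library 2 or 3 (0.10, 0.076 and 0.063). Scaling to the spike-in controls turned KLF3 to 0.49 with DMA and 0.18 with C646, and it ended the call of KLF4 with DMA (-0.56, adjusted p = 0.29), of KLF11 with C646 (-0.78, 0.079) and of KLF2 with C646 (-1.04, 0.079). The same scaling added calls of higher KLF9 and KLF13 with DMA (1.03 and 1.06, adjusted p = 0.0093 and 0.011) and with C646 (0.81 and 0.88, adjusted p = 0.049 and 0.040). With only the compared groups fitted, KLF2 with C646 did not pass (0.051).

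Over all 6 comparisons, 24 of 60 tests of the 10 genes passed, against 13.6% of the tests of all genes. The comparisons share the libraries of 4 groups, so a shift of 1 group can count in several tests. The 10 genes were also chosen with earlier results of these data known, so the shares are a description only. Of the 24 calls, 10 were ended by no left-out library and 8 by no alternative at all. The 8 were KLF4, KLF10 and KLF11 in solvent against starved cells, KLF6, KLF10 and KLF11 in DMA against starved cells, and KLF4 and KLF10 in C646 against starved cells. With TMM scaling and all libraries fitted, KLF9 and KLF13 passed in none of the 6 comparisons by edgeR, nor by DESeq2. With spike-in scaling KLF9 passed in all 3 comparisons with starved cells and KLF13 in those of DMA and C646. At an unadjusted p under 0.05 KLF9 passed in 1, solvent against starved cells, and KLF13 in 0. KLF13, a regulator known from lymphocytes and heart, had the lowest F over the 4 groups (0.492), with 18.25 to 28.75 CPM in starved libraries and 21.4 to 31.2 CPM under DMA.

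Most counts of a gene lay on 1 transcript for KLF2 (94.2%), KLF3 (94.2%), KLF6 (93.0%), KLF10 (95.5%), KLF11 (92.6%) and KLF13 (98.1%), and KLF9 has 1 annotated transcript. KLF7-201 held 77.4% of the counts of KLF7. For KLF4 the coding transcript KLF4-206 held 7.15% to 85.6% of the counts of a library and the retained-intron transcript KLF4-205 held 0% to 66.2%, on 47 to 432 counts of the gene. Transcript shares of KLF4 were therefore not compared between groups. Exons of KLF3 overlap the opposite-strand gene KLF3-AS1 over 4.22% of their bases and those of KLF11 overlap the opposite-strand AC104794.4 over 9.07%. At most 2.76% of a member's 31-base sequences occur in other genes.

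Other genes of the same zinc finger family were described as a list. Of 17 listed KLF and SP genes, 8 were tested. In solvent against starved cells 2 of the 8 were lower and none higher by edgeR (also 0 higher by DESeq2 and at an unadjusted p under 0.05), against 11.7% and 12.6% of all genes. Their median log2 difference was -0.19 in solvent against starved cells, 0.17 with DMA and 0.10 with C646, against 0.00, 0.01 and 0.01 over all genes. SP1, a widely expressed GC-box activator, fell from 134.5 to 79.0 CPM between starved and solvent cells (log2 difference -0.77, adjusted p = 2.8e-04), and SP2 fell by 0.60 (adjusted p = 0.049). SP3 (-0.14), SP4 (-0.24), SP6 (-0.05), KLF12 (-0.09) and KLF16 (-0.57) did not pass. With DMA 2 of the 8 were higher by edgeR, against 0.734% of all genes, and 0 lower, against 1.02%. At an unadjusted p under 0.05, 3 were higher and 1 lower. SP2 rose with DMA from 16.1 to 30.96 CPM (0.94, adjusted p = 0.040). KLF12, a CtBP-binding relative of KLF3, rose from 39.3 to 69.8 CPM (0.83, adjusted p = 0.028). With DMA against starved cells SP2 did not pass (0.34, adjusted p = 0.24), while KLF12 did (0.74, adjusted p = 0.0052). With C646 none of the 8 passed by edgeR, against 1.21% of all genes, or by DESeq2, and 1 did at an unadjusted p under 0.05. KLF12 was also higher with DMA than with C646 (0.66, adjusted p = 0.049).

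Of 12 corepressor and coactivator genes, 1 was higher and 4 lower in solvent than in starved cells, against 12.6% and 11.7% of all genes. HDAC1, a deacetylase of SIN3 complexes, rose by 0.57 on the log2 scale. CTBP2, the partner of KLF3, and CREBBP, which encodes CBP, fell by 1.08 and 0.84. SIN3A itself was also among the lower genes, from 76.0 CPM in starved to 41.9 CPM in solvent cells (-0.86, adjusted p = 0.019). With DMA, EP300, which encodes p300, rose by 0.63 (adjusted p = 0.023) and was the 1 gene of the 12 to pass by edgeR, against 1.75% of all genes. By DESeq2 3 of the 12 were higher, while 1096 of all 15263 genes passed in either direction. At an unadjusted p under 0.05, 3 of the 12 were higher and 1 lower. EP300 was lower in solvent than in starved cells (-0.49, adjusted p = 0.010). With DMA against starved cells EP300 did not pass (0.14, adjusted p = 0.41). With C646 none of the 12 passed by edgeR, against 1.21% of all genes. At an unadjusted p under 0.05, 2 were higher and 1 lower. By DESeq2 2 were higher, while 891 of all 15263 genes passed. The median of the 12 was -0.16 in solvent against starved cells, 0.20 with DMA and 0.12 with C646. Of 6 ubiquitin ligase genes, WWP1, which targets KLF2 and KLF5 proteins, was the 1 to pass in solvent against starved cells (0.41, adjusted p = 0.022), against 24.3% of all genes. The median of the 6 was 0.25, and 0.24 with DMA and 0.23 with C646. None of the 6 passed with DMA or C646 by edgeR, against 1.75% and 1.21% of all genes. Of the 6, 1 and 2 were higher at an unadjusted p under 0.05 and 1 and 0 by DESeq2. Of all 15263 genes, 1096 and 891 passed by DESeq2.

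Of 14 upstream regulators, 2 were higher and 4 lower in solvent than in starved cells, against 12.6% and 11.7% of all genes. MAP2K5, a kinase upstream of KLF2 and KLF4 in endothelium, and NR3C1, the glucocorticoid receptor, fell by 1.15 and 0.62, while MEF2C rose by 1.66. With DMA, MEF2D rose by 0.85, and with C646, SMAD3, a carrier of TGF-beta signals, fell by 1.14, and each was the 1 gene of the 14 to pass by edgeR, against 1.75% and 1.21% of all genes. By DESeq2 1 was higher with DMA, and 1 was higher and 1 lower with C646. Of all 15263 genes, 1096 and 891 passed by DESeq2 in these comparisons. MEF2D was lower in solvent than in starved cells (-0.55, adjusted p = 0.026). With DMA against starved cells MEF2D did not pass (0.31, adjusted p = 0.18). The median of the 14 was -0.11 in solvent against starved cells, 0.14 with DMA and 0.10 with C646.

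Of 13 tested genes reported as KLF targets, 2 were higher and 1 lower in solvent than in starved cells, against 12.6% and 11.7% of all genes. MAOB and CCNE1 rose by 2.42 and 1.32, and PLAU fell by 1.78. MAOB was near the floor, on 2 to 39 counts per library over the 12 libraries. It measured 0.132, 0.126 and 0.143 CPM in starved libraries and 1.37, 0.417 and 0.382 CPM in solvent libraries 1 to 3. The median of the 13 was 0.40, and -0.06 with DMA and 0.06 with C646. CDKN1A, a cell cycle inhibitor known as a target of KLF4 and KLF6, was the 1 of the 13 to pass by edgeR with DMA and also with C646, against 1.75% and 1.21% of all genes. By DESeq2 1 was higher and 1 lower with DMA, and 2 were higher and 1 lower with C646. Of all 15263 genes, 1096 and 891 passed by DESeq2 in these comparisons. CDKN1A averaged 409 ± 104 CPM in solvent, 992 ± 85.1 CPM in DMA and 1208 ± 254 CPM in C646 libraries (SD, n = 3). Its log2 differences were 1.28 and 1.56 (adjusted p = 0.018 and 0.0074). Of 4 tested glucocorticoid-responsive genes, FKBP5 passed in solvent against starved cells, with a rise of 1.31, against 24.3% of all genes. With DMA and C646, 1.75% and 1.21% of all genes passed by edgeR. None of the 4 did by edgeR or DESeq2, and 0 and 1 did at an unadjusted p under 0.05. Their median was -0.62, -0.25 and 0.31 in these comparisons.

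By the quasi-likelihood F over the 4 groups, KLF11, KLF10 and KLF4 varied most between groups. The genes whose log2 CPM over the 12 libraries was most like theirs, among 10787 genes ranked by Pearson correlation, were RPRD2 (r = 0.963), BROX (0.954) and SPIRE1 (0.948) for KLF11. For KLF10 they were SPATA13 (0.97), SLC4A1AP (0.963) and METTL21A (0.951). For KLF4 they were ARHGEF2 (0.955), PKP2 (0.953) and RBL2 (0.95). The 12 points share their 4 groups, so these values describe likeness only. SPIRE1, an actin nucleator, averaged 154 CPM in starved cells and 51.2, 54.1 and 77.5 CPM with solvent, DMA and C646. ARHGEF2, an exchange factor for the GTPase RhoA, averaged 276 CPM in starved cells and 73.8, 132 and 71.6 CPM in the same order.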

How the data were processed

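Messenger RNA was measured in 12 libraries of RPE-1 cells. Per the labels' protocols RNA was selected by poly-A with a stranded kit. Per the submitters' processing notes the tools were Trimmomatic 0.36 and STAR 2.7.0e with build GRCh38.p10. The sources used here name no quantifier, annotation or strand setting. The deposited tables hold, per the file headers, expected counts (estimated counts, not whole numbers) and TPM of each of 182164 transcripts. Expected counts were summed per gene by GENCODE 29 and rounded. The 92 spike-in sequences and 264 transcripts without a match (0.0923% to 0.146% of counts) were left out. A count of 3 equals 0.105 to 0.203 CPM before TMM scaling, which covers counting error only.

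Genes passing filterByExpr (minimum count 10, minimum total 15) were scaled by TMM and tested with edgeR 4.0.16 in 1 robust quasi-likelihood fit of 12 libraries, with Benjamini-Hochberg adjustment over 15263 genes and a threshold of 0.05. Intervals use the fit's t quantiles. The edgeR fit was tested on simulated data for solvent against starved cells, and the other steps were not. Alternatives were DESeq2 1.42.0, its size factors, other filters, spike-in scaling, only the compared groups, the library number as a block, and leaving out libraries. Log2 CPM used a prior count of 2. Numbers were taken to pair libraries where every pair's deviations from its group means correlated above 0.1. This held for all comparisons (0.128 to 0.483) except solvent with starved cells (0.0957 to 0.33). The block was no part of the fit.

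Members and gene lists were chosen with earlier results of these data known. Named genes are the 10 members, the other KLF and SP genes of at least 1 CPM, up to 3 genes per list and comparison past the threshold, and the 3 genes most like each of the 3 members with the largest F. SIN3A is named besides these. Counts of list genes at an unadjusted p have no share over all genes beside them. Protein sequences are not used here.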

Additional observations from a re-analysis of the deposited data

How the results depend on the processing

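Of 60 member differences, none that passed turned direction under any alternative except KLF3 under spike-in scaling. The number of members past the threshold moved with spike-in scaling to 1 (DMA against solvent), 0 (C646 against solvent) and 1 (DMA against C646), and with only the compared groups to 0 (DMA against solvent) and 1 (DMA against C646). Leaving out 1 library gave 3 to 4 members (solvent against starved), 0 to 2 (DMA against solvent), 0 to 1 (C646 against solvent), 0 to 2 (DMA against C646), 4 to 6 (DMA against starved) and 4 to 6 (C646 against starved). With 1 library left out, 2269 to 3450 of all genes passed in solvent against starved. In DMA against starved 3009 to 3480 passed, and in C646 against starved 2514 to 3221. The cause of these moves was not tested.

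Reversed log2 differences under spike-in scaling were 0.15 (KLF3), 0.23 (KLF5) and 0.57 (KLF13) in solvent against starved, 0.33 (KLF11) in DMA against solvent, 0.033 (KLF3), 0.095 (KLF4), 0.069 (KLF6) and 0.115 (KLF7) in C646 against solvent, 0.49 (KLF3) in DMA against starved and 0.18 (KLF3) in C646 against starved. The stricter filter gave 0.0069 for KLF7 in C646 against solvent. Ranges over left-out libraries that crossed 0 were -0.218 to 0.121 (KLF13, solvent against starved), -0.085 to 0.0926 (KLF7) and -0.348 to 0.204 (KLF11) in DMA against solvent, -0.226 to 0.116 (KLF4), -0.199 to 0.0374 (KLF6) and -0.102 to 0.133 (KLF7) in C646 against solvent, -0.145 to 0.145 (KLF5), -0.113 to 0.123 (KLF7), -0.215 to 0.369 (KLF9) and -0.0535 to 0.204 (KLF13) in DMA against C646, and -0.0404 to 0.352 (KLF6), -0.161 to 0.423 (KLF9) and -0.0424 to 0.273 (KLF13) in C646 against starved.

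With the replicate block, 5, 3, 1, 3, 6 and 7 members passed in solvent against starved, DMA against solvent, C646 against solvent, DMA against C646, DMA against starved and C646 against starved. Of all 15263 genes, 5451, 1560, 1199, 1498, 5914 and 5531 passed with the block in the same order. KLF10 in DMA against solvent was the only member call that the block changed. For solvent against starved the numbers do not pair the libraries by the rule used, although each correlated best with its own number, and the block moved the genes called from 3704 to 5451. The block without solvent library 1 gave KLF7 -0.0047 and KLF11 0.27 in DMA against solvent, and KLF6 0.081 in C646 against solvent. In solvent against starved it added a call of lower KLF5 (-0.505, adjusted p = 0.0346) and ended that of KLF3 (-0.45, 0.057).

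Over all genes, the number called in DMA against solvent was 267 and moved to 1560 (block), 471 (block without solvent library 1), 1096 (DESeq2), 455 (no filter), 91 (spike-in), 31 (only compared groups) and 1 to 286 over left-out libraries. For C646 against solvent 185 moved to 1199, 321, 891, 348, 100, 71 and 24 to 135. For DMA against C646 441 moved to 1498 (block), 1057 (DESeq2), 120 (spike-in), 140 (only compared groups) and 180 to 316. For DMA against starved 4109 moved to 6574 with spike-in scaling. The share of calls that were higher was 51.9%, 41.9%, 67%, 32.7%, 51.7% and 52.5% in the order above and 94.5%, 93.4%, 84%, 44.2%, 97.9% and 97.6% with spike-in scaling. That scaling moved the median of all genes by 0.59, 0.22, 0.12, 0.094, 0.81 and 0.715. Depth limits KLF2 most.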
